A study of Mus musculus with 11 samples.

Results

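Inflammasome and pyroptosis genes were followed across the livers of mouse embryos at E15.5. The members are 9 of the 52636 genes listed for each liver, chosen by name through their Ensembl identifiers: the sensors Nlrp3, Nlrc4 and Aim2, the adaptor Pycard, the inflammatory caspases Casp1 and Casp4, the membrane rupture genes Gsdmd and Ninj1, and the cytokine Il18. RNA was sequenced from 11 untreated livers of 4 genotypes: WT (n = 3), Tnfr1 KO (Tnfr1-/-, n = 2), Casp8 Mlkl dKO (Casp8-/- Mlkl-/-, n = 3) and Casp8 Tnfr1 dKO (Casp8-/- Tnfr1-/-, n = 3). All alleles were germline deletions on a C57BL/6 N background, so every cell of the embryo carried them, and litters were not named. Casp8 encodes caspase-8, Tnfr1 a receptor for TNF and Mlkl the effector of necroptosis, and the livers were sequenced to ask whether interferon-stimulated genes besides Zbp1 were raised in Casp8 Tnfr1 dKO embryos.

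Inflammasomes are complexes that assemble in the cytosol of myeloid and some epithelial cells when a sensor meets a danger signal: NLRP3 responds to loss of potassium, NLRC4 to bacterial proteins bound by NAIP receptors, and AIM2 to double-stranded DNA. Most sensors recruit ASC, the product of Pycard, which gathers and activates caspase-1; caspase-11, encoded by Casp4 in the mouse, is activated by bacterial lipopolysaccharide without these sensors. Both caspases cleave gasdermin D, which forms pores in the plasma membrane, caspase-1 also matures IL-1β and IL-18, and NINJ1 then ruptures the membrane.

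Each liver had a total of 23129212 to 35819339 counted reads. CPM below stands for counts scaled to the size of the library, corrected by edgeR's TMM method. A gene was called where the Benjamini-Hochberg adjusted p of edgeR's quasi-likelihood test, over all 17243 genes kept by a filter on low counts, was under 0.05, and this value is written below as edgeR adjusted p. All 9 members passed the filter. Casp8 lay between 7.82 and 21.9 CPM in the 6 livers labelled Casp8 dKO and between 27.7 and 33.9 in the other 5, and Mlkl between 0.730 and 1.22 CPM in the Casp8 Mlkl dKO livers and 3.68 or more in all others. Tnfrsf1a, which encodes TNFR1, measured 49.8 and 50.5 CPM in the Tnfr1 KO livers and 47.1 to 53.4 CPM in WT livers, and 76.9, 76.0 and 425 CPM in Casp8 Tnfr1 dKO livers, so its count over the whole gene checks nothing about this allele. The labelled tissue was recognisable from hepatocyte genes and erythroid genes, whose summed levels lay between 48028 and 191344 CPM (6 genes) and between 8603 and 16060.5 CPM (6 genes).

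2 libraries stood apart. In Casp8 Tnfr1 dKO replicate 3 the TMM factor was 0.758, correlations of log2 CPM with the other livers across genes reached no more than 0.891, and the sum of 8 striated muscle markers was 1347 CPM against 13.7 to 34.1 CPM elsewhere. In Casp8 Mlkl dKO replicate 1 the TMM factor was 0.812 and the sum of 6 hepatocyte markers 191344 CPM, against 48028 to 88377 CPM in the other 10 livers. Results are therefore given with and without these livers. In RNA from whole livers, fewer cells of a type and less RNA per cell cannot be told apart.

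Positions are those of GENCODE M21 on GRCm38. Nlrp3 is on chromosome 11 (59541568 to 59566956), Nlrc4 on chromosome 17 (74425438 to 74459142), Aim2 on chromosome 1 (173350879 to 173466040), Pycard on chromosome 7 (127989708 to 127993867), Gsdmd on chromosome 15 (75862327 to 75867408) and Ninj1 on chromosome 13 (49187485 to 49196244). Chromosome 9 holds Casp1 (5298517 to 5307265), Casp4 (5308828 to 5336783) and Il18 (50554827 to 50581840). Casp1 and Casp4 are neighbours on the plus strand with 1562 bases between them. Of the 50-base stretches of the members' transcripts, at most 1.09% were shared with other genes, except in Pycard, where 11.7% were shared with the antisense Gm45205 and with Mvp. Exons of Pycard and Gm45205 overlap, and since the use of strand in counting was not stated, reads from this stretch cannot be assigned.

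RefSeq promoters of GRCm38.p6, each 300 bases long from 250 before to 50 after a start, were found for 8 of the 9 members, all but Gsdmd. Shown are the 120 bases before the annotated start of the neighbours Casp1 and Casp4, which were both higher in Casp8 Tnfr1 dKO livers but by different amounts, and of Pycard, whose product joins the sensors to caspase-1. They are written 5′ to 3′ on the strand of the gene, and capitals mark matches to a searched motif.
Casp1, chr9:5298397-5298516, plus strand: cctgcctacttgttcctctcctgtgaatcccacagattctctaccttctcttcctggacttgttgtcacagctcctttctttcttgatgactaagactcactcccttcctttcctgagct
Casp4, chr9:5308708-5308827, plus strand: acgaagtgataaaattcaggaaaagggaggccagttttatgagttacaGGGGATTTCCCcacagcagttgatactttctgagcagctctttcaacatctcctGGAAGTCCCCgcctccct
Pycard, chr7:127993868-127993987, minus strand: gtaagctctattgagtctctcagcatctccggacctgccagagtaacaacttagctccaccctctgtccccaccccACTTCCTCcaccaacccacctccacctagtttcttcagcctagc

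The capitals in Casp4 are matches to the consensus for NF-kappaB, an inflammatory transcription factor. They begin 93, 92 and 39 bases before the RefSeq start, the first pair overlapping, and this consensus was met in 8.46% of all 32851 promoters in the table. The capitals in Pycard match GAGGAAGT, the core bound by the myeloid factor PU.1, on the opposite strand, a motif held by 3.20% of the promoters. GAAANNGAA, the core of the interferon-stimulated response element (8.56% of promoters), and TTCNNNGAA, the STAT site (8.30%), were searched on both strands and found in none of the 8 members. Outside the stretches shown, Nlrp3 held a kappaB match in one of its 2 promoters and Aim2 a PU.1 match. Matches are a description of these letters.

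Per kilobase of the deposited gene width, the scale on which different genes can be compared, Ninj1 was highest in WT livers at a mean of 18.4 CPM per kb. It was followed by Gsdmd at 9.11, Il18 at 5.41, Aim2 at 3.63, Pycard at 3.33, Casp1 at 2.89, Nlrp3 at 0.877, Casp4 at 0.627 and Nlrc4 at 0.368 CPM per kb. The ranges over WT livers overlapped between Aim2 and Pycard, Pycard and Casp1, Nlrp3 and Casp4, and Casp4 and Nlrc4, so these neighbours in the order were not separated. In Casp8 Tnfr1 dKO livers Gsdmd stood at the head with 28.0 CPM per kb, overlapping Ninj1 at 23.5, and Casp4 came next at 13.6 CPM per kb, with a range from 6.69 to 26.9. This place of Casp4 rested on replicate 3: in replicates 1 and 2 it measured 7.23 and 6.69 CPM per kb, below Casp1 at 8.29 and 8.16. With exon lengths of GENCODE M21 in place of the deposited width the mean of Casp4 in Casp8 Tnfr1 dKO livers was 5.27 CPM per kb, below Casp1 at 7.55. In WT livers the mean of Casp4 was then 0.243 CPM per kb. The widths of Nlrc4, Aim2, Gsdmd and Ninj1 also differ from these lengths, and their places were not recomputed.

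In Casp8 Tnfr1 dKO livers the inflammatory caspases Casp4 and Casp1 and the pore-forming Gsdmd were higher than in each of the other genotypes. Casp4 was 21.6-fold, Casp1 2.61-fold and Gsdmd 3.07-fold higher than in WT. Without Casp8 Tnfr1 dKO replicate 3 the difference of Casp4 from WT was 11.1-fold. The sensors, Pycard, Ninj1 and Il18 were not called in any of the 3 comparisons over all livers. Thus 3 of 9 members were called higher against WT, where 5.1% of all genes tested were called higher, 3 of 9 against Tnfr1 KO (2.05% of genes) and 3 of 9 against Casp8 Mlkl dKO (1.54% of genes). The 3 comparisons share the Casp8 Tnfr1 dKO livers. The median log2 fold change of the 9 members was 0.72, 0.63 and 0.62 in this order, beside -0.00, -0.01 and -0.03 over all genes tested. For the same 3 members every Casp8 Tnfr1 dKO liver lay above all 8 other livers, an arrangement found in 7.43% of genes.

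**Figure D1:**
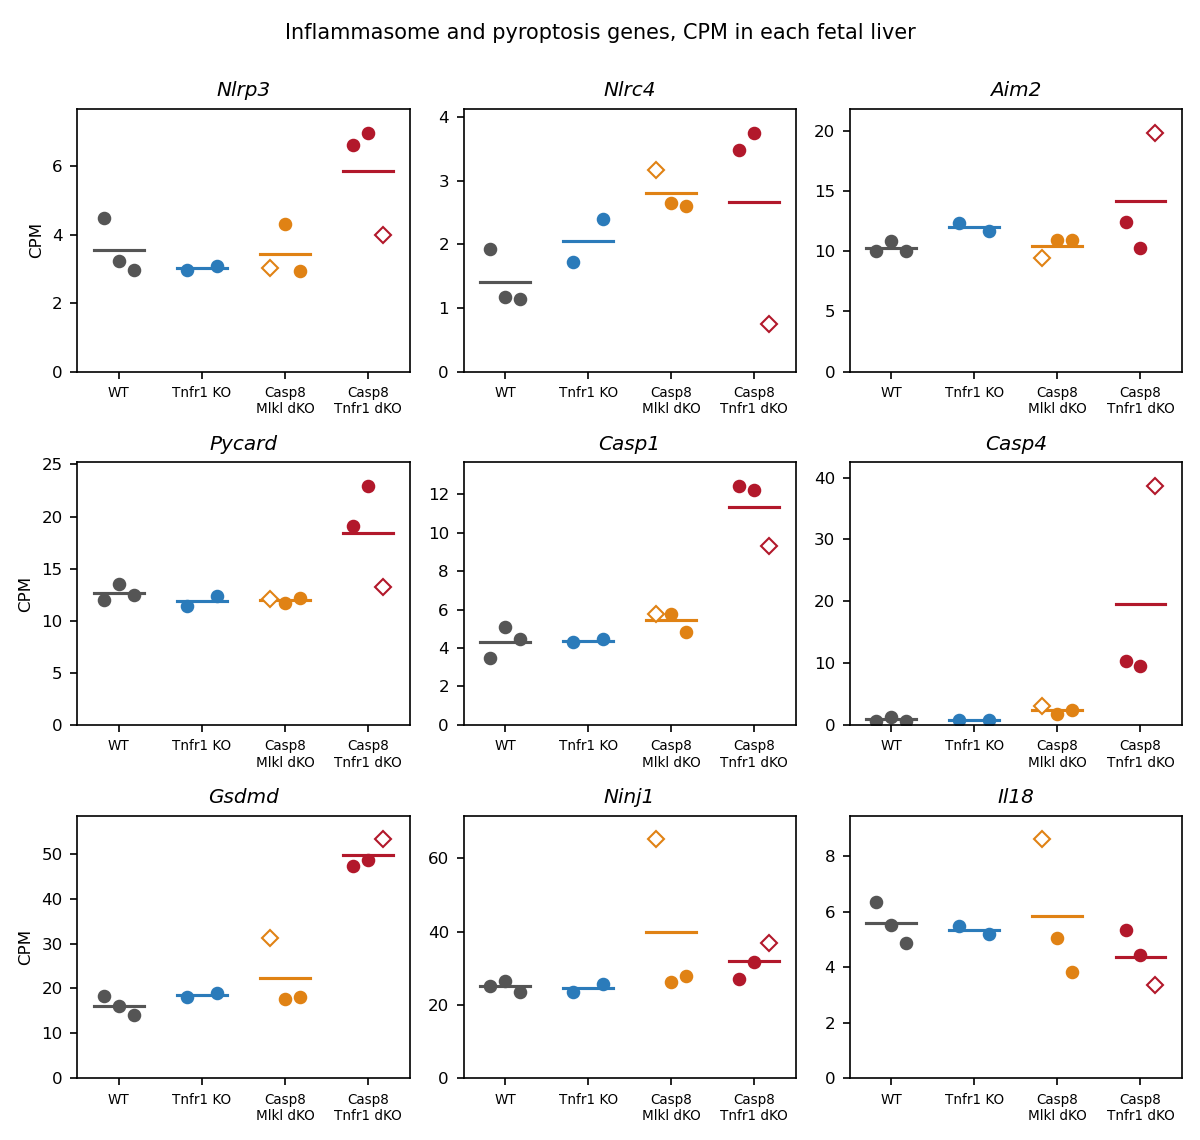
CPM of each member (vertical axis, from 0) in each of the 11 livers by genotype; points are livers, horizontal lines are group means, and open diamonds mark Casp8 Tnfr1 dKO replicate 3 and Casp8 Mlkl dKO replicate 1, which stood apart. For Casp1, Casp4 and Gsdmd all 3 Casp8 Tnfr1 dKO livers lie above the other 8, whereas the diamond falls towards or below the other genotypes for Nlrp3, Nlrc4 and Pycard.

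The NLRP3 sensor gene measured 4.49, 3.23 and 2.96 CPM in WT livers, 2.98 and 3.08 in Tnfr1 KO livers, 3.04, 4.33 and 2.94 in Casp8 Mlkl dKO livers and 6.62, 6.99 and 3.99 in Casp8 Tnfr1 dKO livers. Replicates 1 and 2 of the last genotype lay above every other liver, whereas replicate 3 fell within the range of the rest. The log2 fold change of Nlrp3 in Casp8 Tnfr1 dKO livers was 0.72 against WT (95% interval 0.09 to 1.36, edgeR adjusted p = 0.159), 0.96 against Tnfr1 KO (edgeR adjusted p = 0.192) and 0.77 against Casp8 Mlkl dKO (edgeR adjusted p = 0.246). Without replicate 3 it was 0.94, 1.17 and 0.98, with edgeR adjusted p = 0.0334, 0.0333 and 0.0571.

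Nlrc4, the sensor that works with NAIP receptors, measured 1.92, 1.17 and 1.14 CPM in WT livers and 1.72 and 2.39 in Tnfr1 KO livers. It reached 3.16, 2.64 and 2.60 CPM in Casp8 Mlkl dKO livers and 3.48, 3.75 and 0.741 in Casp8 Tnfr1 dKO livers. The lowest of all 11 livers, replicate 3 of the Casp8 Tnfr1 dKO, rests on 13 reads, while the other pair of this genotype held the highest values. Over all livers the log2 fold change of Nlrc4 against WT was 0.92 (95% interval -0.20 to 2.05, edgeR adjusted p = 0.279), against Tnfr1 KO 0.39 (-0.86 to 1.63) and against Casp8 Mlkl dKO -0.06 (-1.16 to 1.04). Without replicate 3 it was 1.36 against WT (edgeR adjusted p = 0.0135), 0.82 against Tnfr1 KO (edgeR adjusted p = 0.169) and 0.37 against Casp8 Mlkl dKO (edgeR adjusted p = 0.591).

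Aim2, the DNA sensor gene, measured 10.06, 10.86 and 10.02 CPM in WT livers, 12.4 and 11.7 in Tnfr1 KO livers, 9.49, 10.95 and 10.93 in Casp8 Mlkl dKO livers and 12.5, 10.3 and 19.9 in Casp8 Tnfr1 dKO livers. Only replicate 3 of the last genotype stood clear of the others, in the direction opposite to Nlrp3 and Nlrc4. The log2 fold change of Aim2 was 0.46 against WT (95% interval -0.05 to 0.97, edgeR adjusted p = 0.242), 0.24 against Tnfr1 KO (-0.33 to 0.81) and 0.44 against Casp8 Mlkl dKO (-0.07 to 0.95). Without replicate 3 these values were 0.15, -0.08 and 0.13.

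Pycard, which encodes the adaptor ASC, measured 12.0, 13.5 and 12.5 CPM in WT livers, 11.4 and 12.4 in Tnfr1 KO livers and 12.1, 11.7 and 12.2 in Casp8 Mlkl dKO livers. In Casp8 Tnfr1 dKO livers it measured 19.1, 22.9 and 13.3 CPM. Replicates 1 and 2 lay above all other livers and replicate 3 within the WT range. The log2 fold change of Pycard was 0.54 against WT (95% interval 0.11 to 0.98, edgeR adjusted p = 0.128), 0.63 against Tnfr1 KO (edgeR adjusted p = 0.198) and 0.62 against Casp8 Mlkl dKO (edgeR adjusted p = 0.173). Without replicate 3 it was 0.74, 0.82 and 0.81 (edgeR adjusted p = 0.00605, 0.00991 and 0.00791). Part of these reads may belong to the antisense Gm45205.

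Casp1, the effector caspase of the inflammasomes, measured 3.46, 5.07 and 4.46 CPM in WT livers, 4.32 and 4.44 in Tnfr1 KO livers, 5.76, 5.75 and 4.82 in Casp8 Mlkl dKO livers and 12.4, 12.2 and 9.29 in Casp8 Tnfr1 dKO livers. The means were 4.33 ± 0.815 (SD, n = 3) in WT and 11.3 ± 1.75 (SD, n = 3) in Casp8 Tnfr1 dKO livers, and the groups did not overlap. Casp1 had a log2 fold change of 1.39 against WT (SE 0.21, edgeR adjusted p = 0.00544), 1.37 against Tnfr1 KO (SE 0.24, edgeR adjusted p = 0.0192) and 1.06 against Casp8 Mlkl dKO (SE 0.21, edgeR adjusted p = 0.0386). Replicate 3 was the lowest of its group here, and without it the values were 1.52, 1.49 and 1.18.

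Casp4, which encodes the lipopolysaccharide sensor caspase-11, varied more than any other member. It measured 0.691, 1.30 and 0.710 CPM in WT livers and 0.793 and 0.798 in Tnfr1 KO livers, resting on 18 to 31 reads per liver. In Casp8 Mlkl dKO livers it measured 2.99993, 1.74 and 2.48 CPM, above all WT and Tnfr1 KO livers. In Casp8 Tnfr1 dKO livers it measured 10.4, 9.60 and 38.6 CPM, all above the other 8 livers, and replicate 3 held 3.87 times the mean of the other pair. Casp4 had a log2 fold change of 4.43 against WT (SE 0.60, edgeR adjusted p = 0.00305), 4.61 against Tnfr1 KO (SE 0.72, edgeR adjusted p = 0.0110) and 3.02 against Casp8 Mlkl dKO (SE 0.55, edgeR adjusted p = 0.0281). Without replicate 3 Casp4 was still called, at 3.48, 3.65 and 2.06 (edgeR adjusted p = 0.000253, 0.000676 and 0.00503).

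Gsdmd, the gene of the pore former, measured 18.4, 16.1 and 14.0 CPM in WT livers, 18.03 and 19.07 in Tnfr1 KO livers, 31.3, 17.7 and 18.2 in Casp8 Mlkl dKO livers and 47.3, 48.6 and 53.2 in Casp8 Tnfr1 dKO livers. The 3 Casp8 Tnfr1 dKO livers were close together, at a mean of 49.7 ± 3.06 CPM (SD, n = 3), and clear of all others, of which Casp8 Mlkl dKO replicate 1 was the highest. Gsdmd had a log2 fold change of 1.62 against WT (SE 0.23, edgeR adjusted p = 0.00355), 1.42 against Tnfr1 KO (SE 0.26, edgeR adjusted p = 0.0225) and 1.15 against Casp8 Mlkl dKO (SE 0.22, edgeR adjusted p = 0.0366). Without replicate 3 Gsdmd was still called, at 1.58, 1.37 and 1.11.

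Ninj1, which acts after gasdermin D, measured 25.2, 26.6 and 23.4 CPM in WT livers, 23.7 and 25.8 in Tnfr1 KO livers, 65.1, 26.4 and 28.0 in Casp8 Mlkl dKO livers and 27.2, 31.7 and 37.0 in Casp8 Tnfr1 dKO livers. The highest value by far was that of Casp8 Mlkl dKO replicate 1. The log2 fold change of Ninj1 in Casp8 Tnfr1 dKO livers was 0.35 against WT (95% interval -0.34 to 1.04, edgeR adjusted p = 0.490), 0.37 against Tnfr1 KO (-0.41 to 1.15) and -0.32 against Casp8 Mlkl dKO (-1.01 to 0.38). Without Casp8 Mlkl dKO replicate 1 the last of these turned to 0.24.

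Il18, the cytokine cleaved by caspase-1, measured 6.34, 5.53 and 4.85 CPM in WT livers, 5.498 and 5.204 in Tnfr1 KO livers, 8.59, 5.06 and 3.82 in Casp8 Mlkl dKO livers and 5.34, 4.44 and 3.36 in Casp8 Tnfr1 dKO livers. The groups overlapped, and Casp8 Mlkl dKO replicate 1 was again the highest liver. Il18 was the one member with a negative log2 fold change in all 3 comparisons, at -0.34 against WT (95% interval -1.03 to 0.34, edgeR adjusted p = 0.491), -0.28 against Tnfr1 KO (-1.04 to 0.47) and -0.40 against Casp8 Mlkl dKO (-1.09 to 0.28), and it was not called. Without Casp8 Mlkl dKO replicate 1 the last of these was -0.01, and without both livers that stood apart it was 0.15.

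**Figure D2:**
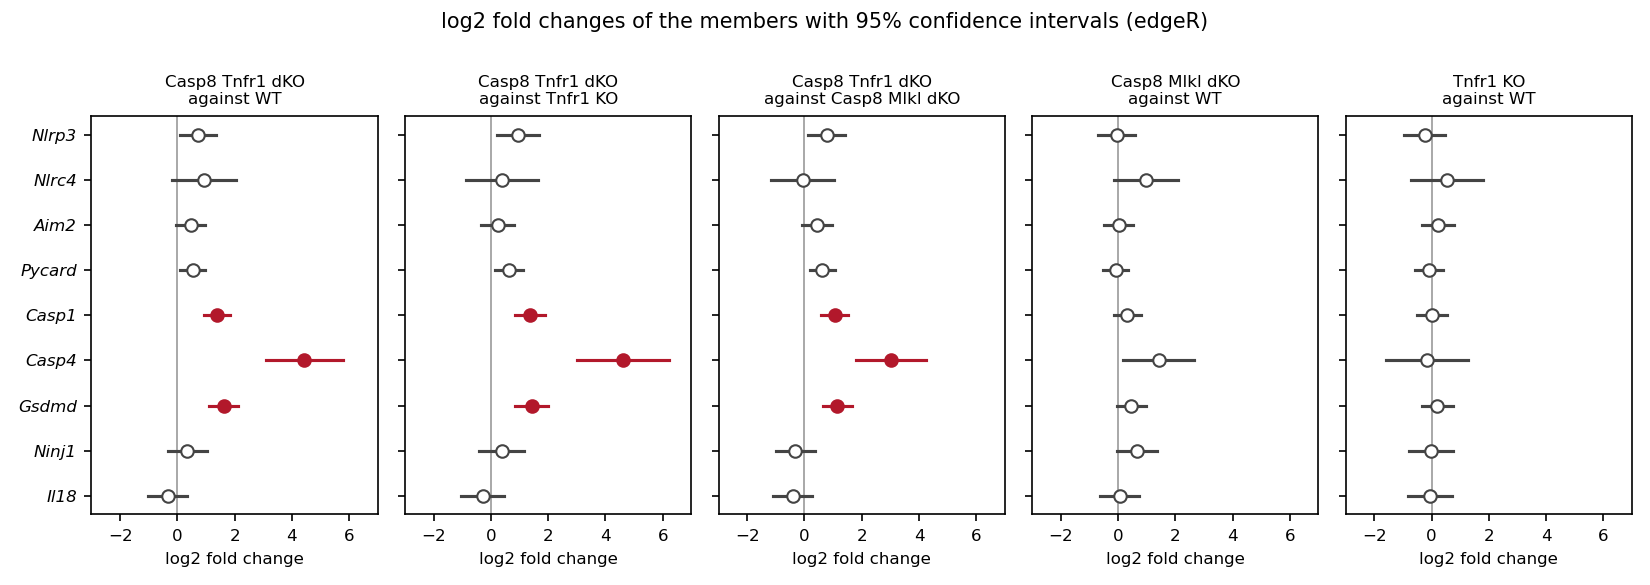
log2 fold change of each member (horizontal axis) in 5 comparisons, with the 95% confidence interval of the edgeR fit as a line; filled red points are called at an adjusted p under 0.05. Casp1, Casp4 and Gsdmd are called in each comparison of the Casp8 Tnfr1 dKO, and no member is called in the other 2 panels.

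How many members were called depended on the livers in the fit. Without Casp8 Tnfr1 dKO replicate 3, 6 of 9 members were called higher against WT (7.28% of genes), 5 of 9 against Tnfr1 KO (4.46% of genes) and 4 of 9 against Casp8 Mlkl dKO (2.83% of genes), with Nlrp3, Nlrc4 and Pycard added to the called caspases and Gsdmd against WT. Against WT, Casp1, Casp4 and Gsdmd were called with any of the 11 livers left out. Against Tnfr1 KO no member was called without either Tnfr1 KO liver, which leaves that genotype with 1 liver assumed to vary like the others. Against Casp8 Mlkl dKO no member was called without WT replicate 3, without either Tnfr1 KO liver or without Casp8 Mlkl dKO replicate 2 or 3, and 1 was called without WT replicate 1 or 2 or without Casp8 Tnfr1 dKO replicate 1 or 2. The log2 fold changes of Casp1, Casp4 and Gsdmd kept their sign in these fits. Against Casp8 Mlkl dKO Casp1 lay between 0.99 and 1.18, Casp4 between 2.06 and 3.36, and Gsdmd between 1.02 and 1.47.

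**Figure D3:**
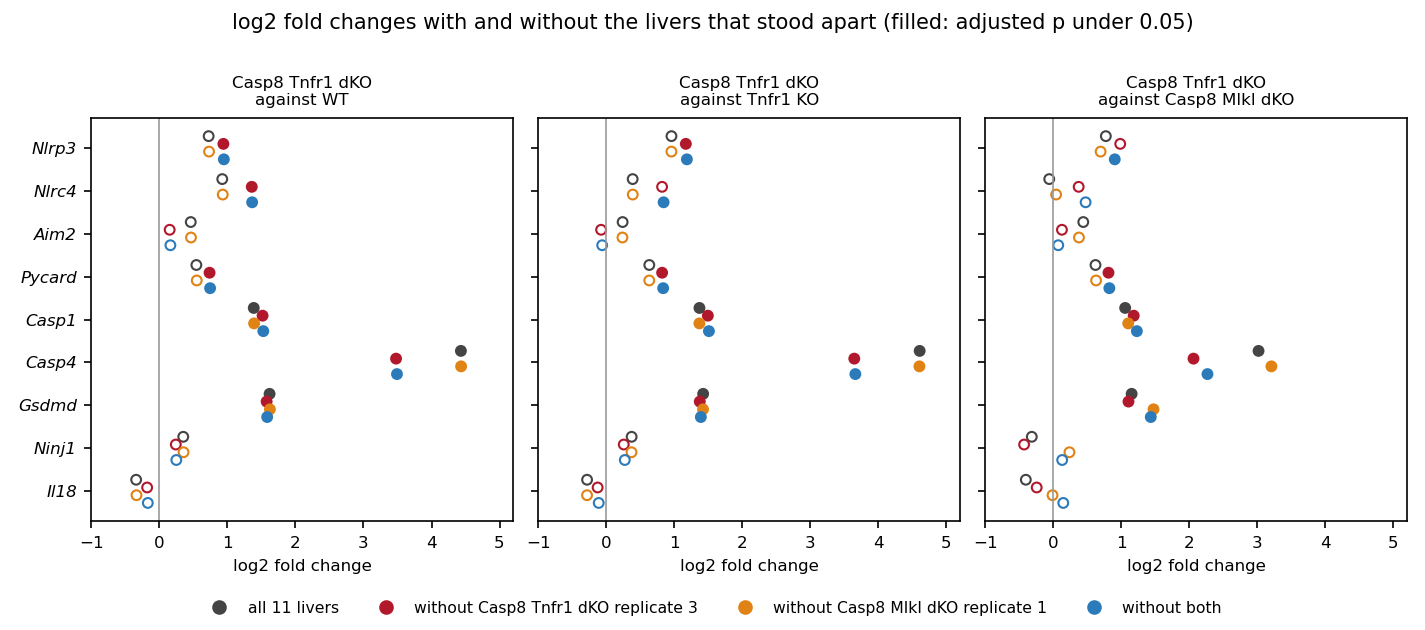
log2 fold change of each member (horizontal axis) in the 3 comparisons of Casp8 Tnfr1 dKO livers, over all 11 livers and without 1 or both of the livers that stood apart (colours); filled points have an edgeR adjusted p under 0.05. Nlrp3, Nlrc4 and Pycard fill without Casp8 Tnfr1 dKO replicate 3 against WT, and Casp4 moves from 4.43 to 3.48.

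Markers of myeloid cells differed between the same livers. The sum of 10 neutrophil markers lay between 5165 and 15236 CPM in Casp8 Tnfr1 dKO livers, highest in replicate 3, and between 1068 and 1538 CPM in all others except Casp8 Mlkl dKO replicate 1, at 3417 CPM. Of these 10 markers 5 were called higher against WT (5.1% of genes), among them S100a9 with a log2 fold change of 3.53. Against Tnfr1 KO 1 was called (2.05% of genes), and against Casp8 Mlkl dKO 0 (1.54% of genes). All 10 log2 fold changes were positive in each of these comparisons. S100a8 and S100a9 made up 3297 and 6468 CPM of the sum in replicate 3, and Ngp, Ltf, Retnlg and Mmp8 were also highest there. Mpo, a defining gene of granulocyte precursors, was instead at 53.4 CPM in replicate 3 and between 336 and 819 CPM in the other 10 livers. Elane, Ly6g and Camp were also lowest of their group in replicate 3, at 14.4, 1.54 and 216 CPM. No neutrophil marker was at 0 in a group. The sum of 14 macrophage markers lay between 1024 and 1123 CPM in Casp8 Tnfr1 dKO livers, 574 and 804 in WT, 714 and 751 in Tnfr1 KO and 822 and 1950 in Casp8 Mlkl dKO livers. Lyz2 made up 559 to 815 CPM of this sum in Casp8 Tnfr1 dKO and 168 to 279 CPM in WT livers; without it the sums were 309 to 464 and 406 to 525 CPM. The median log2 fold change of the 14 markers was -0.20 against WT, with 9 of 14 negative. Against Casp8 Mlkl dKO it was -0.99, with 10 of 14 negative and 3 called lower (Adgre1, Marco, Timd4), beside 0.116% of genes. Against WT, 2 macrophage markers were called higher (Cd68, Lyz2), beside 5.1% of genes, and 2 lower (Clec4f, Marco), beside 0.702% of genes. The Kupffer cell gene Clec4f measured 0.114 to 1.16 CPM in Casp8 Tnfr1 dKO and 10.5 to 13.7 in WT livers. Vsig4, another, measured 0 to 0.0688 and 0.922 to 1.499 CPM. Both were also low in Casp8 Mlkl dKO replicates 2 and 3, Clec4f at 0.203 and 0.726 CPM and Vsig4 at 0.0291 and 0.153 CPM. Replicate 1 of that genotype, which stood apart, held 5.47 CPM of Clec4f and 4.46 CPM of Vsig4. Most of the list went the other way in Casp8 Mlkl dKO livers against WT, with 12 of 14 log2 fold changes positive and 2 negative. Their median was 0.67, and none was called. Adgre1 measured 100 to 170 CPM there and 46.3 to 57.4 in WT livers, Marco 90.7 to 240 and 49.1 to 71.9, and Timd4 30.7 to 62.8 and 15.2 to 17.6. The part of these cells in the members' levels was not tested.

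In Casp8 Mlkl dKO livers, which lack caspase-8 and cannot run necroptosis, no member was called against WT, where 0.0058% of genes were called, 1 gene in all. The deleted genes Casp8 and Mlkl were not called either, at log2 fold changes of -1.75 and -2.11 (edgeR adjusted p = 0.0677 for both). A missing call here therefore does not show an unchanged level. DESeq2 called 79 genes higher and 11 lower. An unadjusted edgeR p under 0.05 was met by 1 of 9 members, beside 971 of the 17243 genes tested. That member was Casp4, with a log2 fold change of 1.42 (95% interval 0.17 to 2.66, edgeR adjusted p = 0.875). The values were 0.98 (-0.14 to 2.11) for Nlrc4, 0.33 (-0.13 to 0.79) for Casp1, 0.47 (-0.03 to 0.96) for Gsdmd and 0.67 (-0.03 to 1.36) for Ninj1. For Casp4 and Nlrc4 each Casp8 Mlkl dKO liver lay above all 5 WT and Tnfr1 KO livers, as in 5.61% of genes. Without both livers that stood apart Casp4 alone was called, at 1.23 (edgeR adjusted p = 0.0209), beside 3.23% of genes called higher, whereas Gsdmd and Ninj1 fell to 0.15 and 0.12.

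Between Tnfr1 KO and WT livers no member was called and 0% of genes were. None of the members had an unadjusted edgeR p under 0.05, beside 186 of the 17243 genes tested, and DESeq2 called 0 genes. Other fits called genes: 138 higher and 121 lower with only these 2 genotypes, 150 and 121 with limma-voom and quality weights, and 59 and 56 without both livers that stood apart, with no member called. The members' log2 fold changes lay between -0.23 for Nlrp3 and 0.54 for Nlrc4. Their intervals were wide, reaching from -1.61 to 1.26 for Casp4.

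Other genes of the pathway were read from lists of further sensors, regulators of sensors, gasdermins and the IL-1 and IL-18 axis. Of 34 genes listed, 24 passed the filter on low counts. In Casp8 Tnfr1 dKO livers 9 of the 24 were called higher against WT (5.1% of all genes), 5 against Tnfr1 KO (2.05%) and 2 against Casp8 Mlkl dKO (1.54%), and none was called lower. The median log2 fold change of the 24 was 0.75, 0.69 and 0.41. None of the 24 was called between the other genotypes over all livers. Without both livers that stood apart 6 were called between Casp8 Mlkl dKO and WT, counted in either direction. In that fit 3.23% of genes were called higher and 3.18% lower. The calls ranged over 5 to 12, 0 to 7 and 1 to 7 genes in the 3 comparisons as each liver was left out.

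Of the IL-1 and IL-18 axis, 5 of 7 genes were called higher against WT (5.1% of all genes). Against Tnfr1 KO 3 of 7 were (2.05%), and against Casp8 Mlkl dKO 1 of 7 (1.54%). Il1b, the cytokine matured by caspase-1, measured 0.126 to 0.197 CPM in WT, 0.190 and 0.246 in Tnfr1 KO, 0.552 to 2.76 in Casp8 Mlkl dKO and 2.31 to 4.22 CPM in Casp8 Tnfr1 dKO livers. On the log2 scale Il1b was higher by 4.25 against WT (edgeR adjusted p = 0.00586) and 3.80 against Tnfr1 KO (edgeR adjusted p = 0.0283), and 1.17 against Casp8 Mlkl dKO, where it was not called. The first pair of these values rests on 4, 3 and 5 reads in WT livers and on 9 and 5 in Tnfr1 KO livers. The call of Il1b against Tnfr1 KO was lost without any single WT or Tnfr1 KO liver. Il1rn, the IL-1 receptor antagonist, rose against all 3 genotypes, by 2.66, 2.44 and 2.24 on the log2 scale (edgeR adjusted p = 0.00111, 0.00709 and 0.00596), from 13.3 to 18.8 CPM in WT to 92.8 to 114 CPM. Against WT and Casp8 Mlkl dKO it was called with any liver left out, and against Tnfr1 KO the call was lost without either Tnfr1 KO liver. Il1r1, the IL-1 receptor, was higher against WT (1.504) and Tnfr1 KO (1.29), the latter not without any single WT or Tnfr1 KO liver or Casp8 Mlkl dKO replicate 2 or 3. The IL-18 receptor chains Il18r1 (2.57) and Il18rap (2.45) were higher against WT. Il18rap lost its call without WT replicate 2 or 3. Il18r1 lost it without Casp8 Tnfr1 dKO replicate 3 (1.81, edgeR adjusted p = 0.0521), Casp8 Mlkl dKO replicate 2 or any single WT or Tnfr1 KO liver. Il1a and the IL-18 binding protein gene Il18bp were not called in any comparison. The neutrophil marker sums given above were higher in the same livers.

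Among the other sensors, 2 of 8 tested were called higher against WT, where 5.1% of all genes were. Mefv, the gene of pyrin, a sensor of disturbed RhoA signalling, had a log2 fold change of 2.81 against WT (edgeR adjusted p = 0.00167) and 2.08 against Tnfr1 KO (edgeR adjusted p = 0.0238), the latter lost without Casp8 Tnfr1 dKO replicate 2, WT replicate 2 or either Tnfr1 KO liver. Naip6, a receptor for bacterial proteins in the NLRC4 inflammasome, had 0.76 (edgeR adjusted p = 0.0260), but was not called without any single WT or Tnfr1 KO liver, and its reads may be shared with its paralogs. Nlrp12 reached 4.43 against WT but was not called (edgeR adjusted p = 0.0784), with 30.3 CPM in Casp8 Tnfr1 dKO replicate 3 and 2.32 and 3.03 in the other pair. Nlrp1a, Nlrp1b, Nlrp6, Naip2 and Naip5 were not called, and Nlrp9b, Nlrp10 and Naip1 did not pass the filter. Of 8 regulators only Pstpip1, which binds pyrin, was called, higher against all 3 genotypes (1.90, 1.83 and 1.77). The shares of all genes called higher in these comparisons were 5.1%, 2.05% and 1.54%. The call of Pstpip1 against Tnfr1 KO was lost without either Tnfr1 KO liver or WT replicate 2, and that against Casp8 Mlkl dKO without Casp8 Mlkl dKO replicate 2 or 3. Nek7, Brcc3, Txnip, P2rx7, Panx1, Dpp8 and Dpp9 were not called. Of 8 gasdermins besides Gsdmd only Gsdme passed the filter, and it was higher against WT (2.33, edgeR adjusted p = 0.0413), at 5.49, 6.54 and 21.9 CPM in Casp8 Tnfr1 dKO and 2.01 to 2.61 CPM in WT livers. Without Casp8 Tnfr1 dKO replicate 3 the log2 fold change of Gsdme was 1.43 (edgeR adjusted p = 0.0406), and Gsdme was not called without any single WT or Tnfr1 KO liver or without Casp8 Mlkl dKO replicate 2 or 3.

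**Figure D4:**
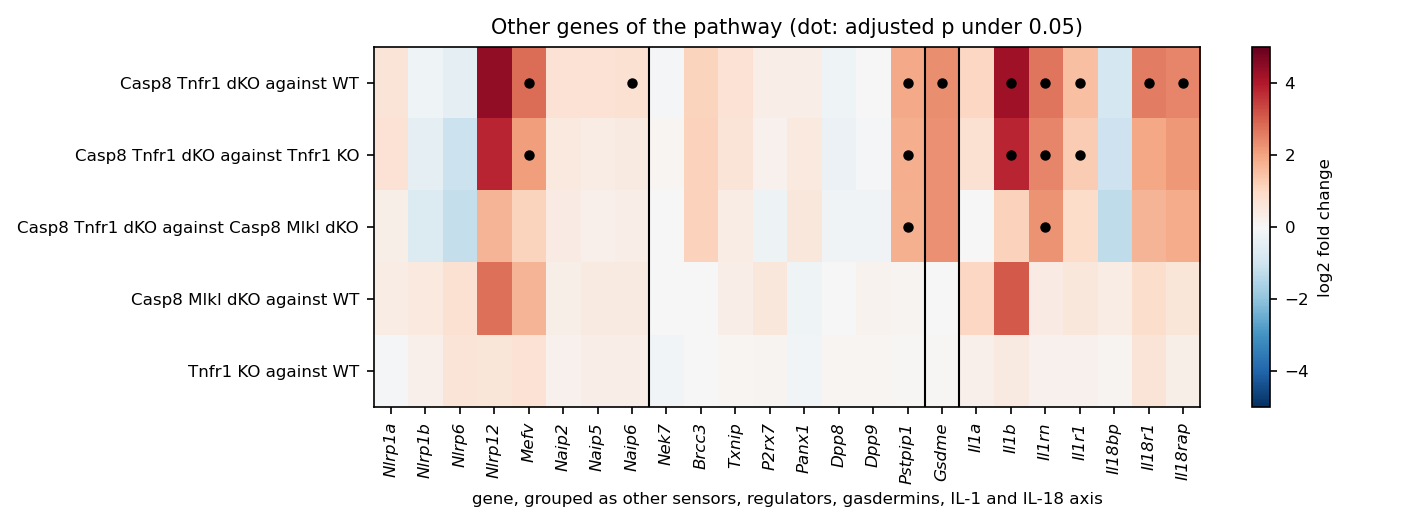
log2 fold changes (colour scale, red higher) of the 24 pathway genes tested (columns, grouped by list) in 5 comparisons (rows); black dots mark an edgeR adjusted p under 0.05. Dots lie in the 3 Casp8 Tnfr1 dKO rows, 9, 5 and 2 of them, with 5 of the 9 against WT in the columns of the IL-1 and IL-18 axis.

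Of the caspases outside the inflammasome, the targeted Casp8 was called lower against WT (-0.99, edgeR adjusted p = 0.0402), where 0.702% of genes were lower; that call was kept only without Casp8 Mlkl dKO replicate 1 or Casp8 Tnfr1 dKO replicate 3. Casp12 measured 0.307 to 0.503 CPM in WT and 1.37, 1.07 and 5.30 CPM in Casp8 Tnfr1 dKO livers, and it was not called against WT (2.56, edgeR adjusted p = 0.0519).

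The genes with profiles most like each member were found as those with the smallest root mean square difference of log2 CPM, centred on the gene's mean, over the 11 livers. For Casp4 they were Mx2, which encodes an antiviral GTPase, at 0.37 and Rtp4 at 0.39, with Casp4 itself spread by 1.79 (SD, log2) around its mean. Mx2 measured 0.788 to 1.09 CPM in WT and 9.15, 7.57 and 19.0 CPM in Casp8 Tnfr1 dKO livers, so that replicate 3 was again the highest. For Casp1 they were B4galt6 (0.16) and Prex2 (0.20), for Gsdmd Cyfip2 (0.12) and Sept5 (0.13), and for Pycard Tbx20 (0.11) and Gmds (0.11). For Nlrp3 they were Coro2a (0.15) and Rnpep (0.16), for Nlrc4 Gm37233 (0.24) and Mpeg1 (0.29), which encodes a macrophage pore protein, and for Aim2 Mysm1 (0.07) and Arel1 (0.08). For Ninj1 they were Abca1 (0.11) and Grb10 (0.11), and for Il18 Echs1 (0.14) and Perp (0.15). No member was among the nearest genes of another.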

How the data were processed

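Raw counts of reads per gene were deposited by the authors in a table per liver, beside a gene width and RPKM values. The RPKM values deposited by the authors were not used. Per the labels, reads were aligned with GSNAP to GRCm38; the paper's methods name uniquely mapped reads. The counting tool, annotation release and use of strand are not given in the sources used here, and widths differ from GENCODE M21 for several members. The labels name a TruSeq v2 kit and a HiSeq sequencer, the methods a stranded kit and a NovaSeq. GENCODE M21 held 52403 of the 52636 identifiers.

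Genotypes came from the labels. The 4 genotypes were fitted together with edgeR 4.0.16 (glmQLFit, glmQLFTest) under R 4.3.3, after filterByExpr with a minimum count of 10 and TMM scaling. A prior count of 2 entered only the log2 CPM values and not the fold changes. The fit was tested on simulated counts with the same spread for every gene and no library that stood apart. That test therefore says nothing about the effect of the livers that stood apart. No pair of livers agreed within sampling noise. Alternatives used DESeq2 1.42.0 and limma 3.58.1 (voom), other filters, other libraries and each liver left out; a fit without both livers that stood apart was added after seeing the data. P-values set differences between genotypes against the spread between livers of the same genotype, estimated over the livers in each fit. Litters were not named, so spread between litters could not be set apart.

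Members and lists were chosen with earlier results of these data known. Named are all members, the targeted genes and the 2 nearest profiles of each member. Pathway genes are named where called in a comparison or needed to account for a list. The neutrophil markers and Cd68, Lyz2, Clec4f, Marco, Adgre1, Timd4 and Vsig4 were named from the marker lists after their values were seen. Some genes of the list of other caspases are not reported here.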

Additional observations from a re-analysis of the deposited data

How the results depend on the processing

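Against WT, 3 members were called over all livers and 3 to 6 as each liver was left out; limma-voom with quality weights and the fit without both livers that stood apart called 6. Against Tnfr1 KO the 3 calls became 0 to 5 as each liver was left out, 6 with quality weights, 6 without both livers and 0 with only the 2 genotypes compared. Against Casp8 Mlkl dKO the 3 calls became 0 to 4 as each liver was left out, 5 with quality weights, 5 without both livers, 0 with only the 2 genotypes compared and 0 with the replicate block. Between Casp8 Mlkl dKO and WT the 0 calls became 2 with quality weights (Casp4 and Nlrc4) and 1 without both livers. The fits with quality weights and without both livers called far more of all genes higher: 17% and 17.8% against WT (5.1% over all livers), 14.6% and 13.9% against Tnfr1 KO (2.05%), 11% and 12% against Casp8 Mlkl dKO (1.54%). DESeq2 size factors, DESeq2's Wald test, limma-voom and both other filters kept each count of called members within 1.5 times. The cause of these shifts was not tested. Fits that leave livers out also hold fewer livers.

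Deviations of same-numbered livers from their group means correlated at -0.30 to 0.28 between genotypes. Livers with different numbers were not compared, so these values cannot decide whether replicate numbers pair the livers. With the replicate block 3 members were called against WT, 3 against Tnfr1 KO and 0 against Casp8 Mlkl dKO.

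Signs turned for values that were not called: Aim2 against Tnfr1 KO (-0.061 with quality weights, -0.078 without Casp8 Tnfr1 dKO replicate 3, -0.062 without both livers), and, against Casp8 Mlkl dKO, Nlrc4 (0.43 with quality weights, 0.04 without Casp8 Mlkl dKO replicate 1, 0.37 without Casp8 Tnfr1 dKO replicate 3, 0.47 without both, and -0.36 to 0.37 as each liver was left out), Ninj1 (0.050 with quality weights, 0.24 without Casp8 Mlkl dKO replicate 1, 0.13 without both, and -0.53 to 0.24 as each liver was left out) and Il18 (0.20 with quality weights, 0.15 without both). Between Casp8 Mlkl dKO and WT they turned for Nlrp3 (0.044 without both; -0.26 to 0.15 as each liver was left out), Aim2 (-0.021 to 0.087 as each was left out) and Il18 (-0.024 with limma-voom, -0.40 with quality weights, -0.32 without both; -0.33 to 0.28 as each was left out). Between Tnfr1 KO and WT they turned for Casp1 (-0.044 with the replicate block; -0.12 to 0.15 as each was left out), Casp4 (0.011 with the replicate block; -0.33 to 0.18), Ninj1 (-0.083 to 0.038) and Il18 (-0.14 to 0.048). Of 900 recomputed log2 fold changes of the 9 members in 5 comparisons, 800 kept sign and call, 28 became called, 39 lost their call and 33 changed sign. Casp4 and Il1b in WT and Tnfr1 KO livers, and Nlrc4, rest on few reads per liver, which limits their precision.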
